A study of Mus musculus with 4 samples.

Results

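Mediator and RNA polymerase II subunit genes were examined for peaks of Pcbp1, which binds C-rich stretches of RNA and of DNA, in primed and in naive mouse pluripotent cells. The genes were chosen by symbol from the RefSeq annotation of GRCm38.p6 (mm10): Med followed by a digit, Polr2 followed by a letter, and Cdk8, Cdk19 and Ccnc. This gave 46 of 21887 protein-coding genes, of which 33 encode Mediator subunits or their paralogues and 13 encode RNA polymerase II subunits or, in Polr2m, a factor bound to the polymerase. A gene was said to have a gene-end peak where the summit of a peak lay within 1 kb of either annotated gene end. No peak height entered this choice, but the genes and the related gene lists used below were chosen with earlier results of these data known.

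ChIP-seq for Pcbp1, the sequencing of chromatin fragments bound by an antibody, was done in E14 Tg2a, an established line of mouse embryonic stem cells. Primed epiblast-like cells (EpiLC) were made from the naive cells on fibronectin in N2B27 medium with 12 ng/ml bFGF, 20 ng/ml Activin A and 1% KOSR over 48 hours. Naive cells had been kept for 3 passages in serum-free N2B27 medium with LIF, 1 uM of the MEK inhibitor PD0325901 and 3 uM of the GSK3 inhibitor CHIR99021. Each state had 1 Pcbp1 ChIP library and 1 input library, chromatin was sheared to about 500 bp, and 1 peak list per state was deposited. No comparison between the states has a replicate check, and the intervals given below cover counting error only. Peak lists give no expression level, so the labelled states were not checked against marker levels.

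RNA polymerase II transcribes the protein-coding genes of the nucleus. Mediator is a large complex that passes signals from enhancer-bound factors to the polymerase at promoters. Its head and middle modules contact the polymerase, its tail contacts activators, and a separable kinase module of Cdk8 or Cdk19, Ccnc, Med12 and Med13 can block that contact. In embryonic stem cells Mediator is known for binding with the pluripotency factors at enhancers of cell identity genes. Subunits of both complexes are used by nearly every cell.

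The promoters on which the results turn are shown first, as RefSeq gives them for GRCm38.p6, on the strand of the gene and from 250 bases before the transcript start to 50 after it, so that the start is base 251. Polr2a, Polr2l and Med6 had gene-end peaks in both lists with summits inside this window or within 10 bases of it. Capitals mark runs of at least 4 C or 4 G, since a G run is a C run on the other strand. The windows are chr11:69758584-69758883 for Polr2a, chr7:141475104-141475403 for Polr2l and chr12:81594959-81595258 for Med6, all on the minus strand.
Polr2a: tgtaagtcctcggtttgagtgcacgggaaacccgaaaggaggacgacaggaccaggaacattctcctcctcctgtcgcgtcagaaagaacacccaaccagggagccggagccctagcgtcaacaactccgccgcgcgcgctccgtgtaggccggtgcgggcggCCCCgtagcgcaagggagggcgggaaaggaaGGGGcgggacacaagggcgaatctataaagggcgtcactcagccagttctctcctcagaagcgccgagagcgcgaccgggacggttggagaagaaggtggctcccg
Polr2l: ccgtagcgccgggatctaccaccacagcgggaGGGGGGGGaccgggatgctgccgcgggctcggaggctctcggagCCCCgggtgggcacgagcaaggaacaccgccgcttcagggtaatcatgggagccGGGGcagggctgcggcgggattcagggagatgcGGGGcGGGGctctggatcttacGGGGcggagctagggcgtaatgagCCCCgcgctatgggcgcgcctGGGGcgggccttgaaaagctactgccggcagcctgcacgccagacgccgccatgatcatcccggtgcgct
Med6: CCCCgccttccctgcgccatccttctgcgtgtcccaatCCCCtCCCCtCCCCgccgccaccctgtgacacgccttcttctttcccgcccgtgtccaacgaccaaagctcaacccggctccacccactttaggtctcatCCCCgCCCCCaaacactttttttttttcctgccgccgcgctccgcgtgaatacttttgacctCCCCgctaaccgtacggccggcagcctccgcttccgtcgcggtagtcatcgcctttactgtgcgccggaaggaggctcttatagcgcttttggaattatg
Med6 held 7 C runs and no G run, Polr2l held 2 C runs and 6 G runs with the longest run at 8 bases, and Polr2a held 1 of each. The EpiLC and Naive summits lay 44 bp after and 167 bp before the start of Polr2a, which are bases 295 and 84 of the window. At Polr2l they lay 155 and 171 bp before the start, and at Med6 57 bp after it and 14 bp before it.

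For contrast, Polr2i had a Naive peak with its summit 13 bp before the start and no run of 4 C or G in its window. Polr2b, which encodes the other large subunit beside Polr2a, was without a gene-end peak although its window held 2 C runs. Their windows are chr7:30231824-30232123 and chr5:77310234-77310533, both on the plus strand.
Polr2i: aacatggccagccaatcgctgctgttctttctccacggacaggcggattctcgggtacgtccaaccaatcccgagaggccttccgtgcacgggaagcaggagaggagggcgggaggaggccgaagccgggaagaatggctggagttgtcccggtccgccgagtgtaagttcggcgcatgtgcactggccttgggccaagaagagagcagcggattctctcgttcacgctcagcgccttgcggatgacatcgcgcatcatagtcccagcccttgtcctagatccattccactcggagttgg
Polr2b: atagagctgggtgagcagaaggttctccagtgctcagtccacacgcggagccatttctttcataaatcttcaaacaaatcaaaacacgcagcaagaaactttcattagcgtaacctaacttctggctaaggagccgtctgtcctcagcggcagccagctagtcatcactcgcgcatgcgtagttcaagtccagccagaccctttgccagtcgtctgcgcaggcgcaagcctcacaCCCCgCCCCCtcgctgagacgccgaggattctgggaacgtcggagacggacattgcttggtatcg
A run of C in the promoter was thus found both with and without a peak.

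Gene-end peaks were present at 6 of the 46 genes in EpiLC (13.04%), beside 5.61% of all protein-coding genes, and at 29 of the 46 in Naive (63.04%), beside 19.3% of all genes. All 6 genes of the EpiLC list (Med6, Med12, Med22, Med24, Polr2a and Polr2l) were also in the Naive list, at overlapping peaks. Among all genes, 4.09% were marked in both lists and 3.83% had overlapping ones. No member was in the EpiLC list alone (1.52% of all genes), 23 were in the Naive list alone (15.2%), and 17 were in neither. The 6 shared genes make up 20.7% of the members in the Naive list, near the 21.2% found over all genes, and 100% of the members in the EpiLC list, where all genes gave 72.9%.

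The lists differed in length, with 3494 peaks in EpiLC and 12132 in Naive. With the Naive list shortened to its 3494 peaks of highest −log10 p, 5 members kept a gene-end peak there (10.9%), where 5.44% of all genes had one. These were Med11, Med20, Med24, Polr2a and Polr2l, of which the last 3 were also in EpiLC. A shortened list has fewer genes by construction, so it cannot show whether list length accounts for the difference in counts. It shows only that the member share stayed above that of all genes. The background over all genes includes genes that are silent in these cells, and expression was not measured here.

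Member peaks were of ordinary height. The fold enrichment, the authors' ratio of the pileup at the summit to the caller's background, had a median over members of 3.18 in EpiLC (n = 6 genes, range 2.43 to 7.47) and of 4.32 in Naive (n = 29 genes, range 2.58 to 10.8). The medians over all genes with a gene-end peak were 3.34 in EpiLC (n = 1228) and 4.58 in Naive (n = 4230). Folds cannot be set directly against each other between the lists, since the genome-wide background was 7.43 reads in EpiLC and 4.004 in Naive. With the summit pileups set over that background alone, the member medians were 5.99 in EpiLC (6 genes) and 5.99 in Naive (29 genes). This measure is not the fold over another background, since it leaves out the 1 that the fold adds to pileup and background. That raises values more at the lower Naive background, and so lowers ratios of EpiLC to Naive. At the 6 genes with overlapping peaks in both lists, the median ratio of EpiLC to Naive was then 0.866. At that background the lowest fold called was 2.85 in EpiLC, from a pileup of 23, and 2.99 in Naive, from a pileup of 14.

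**Figure D1:**
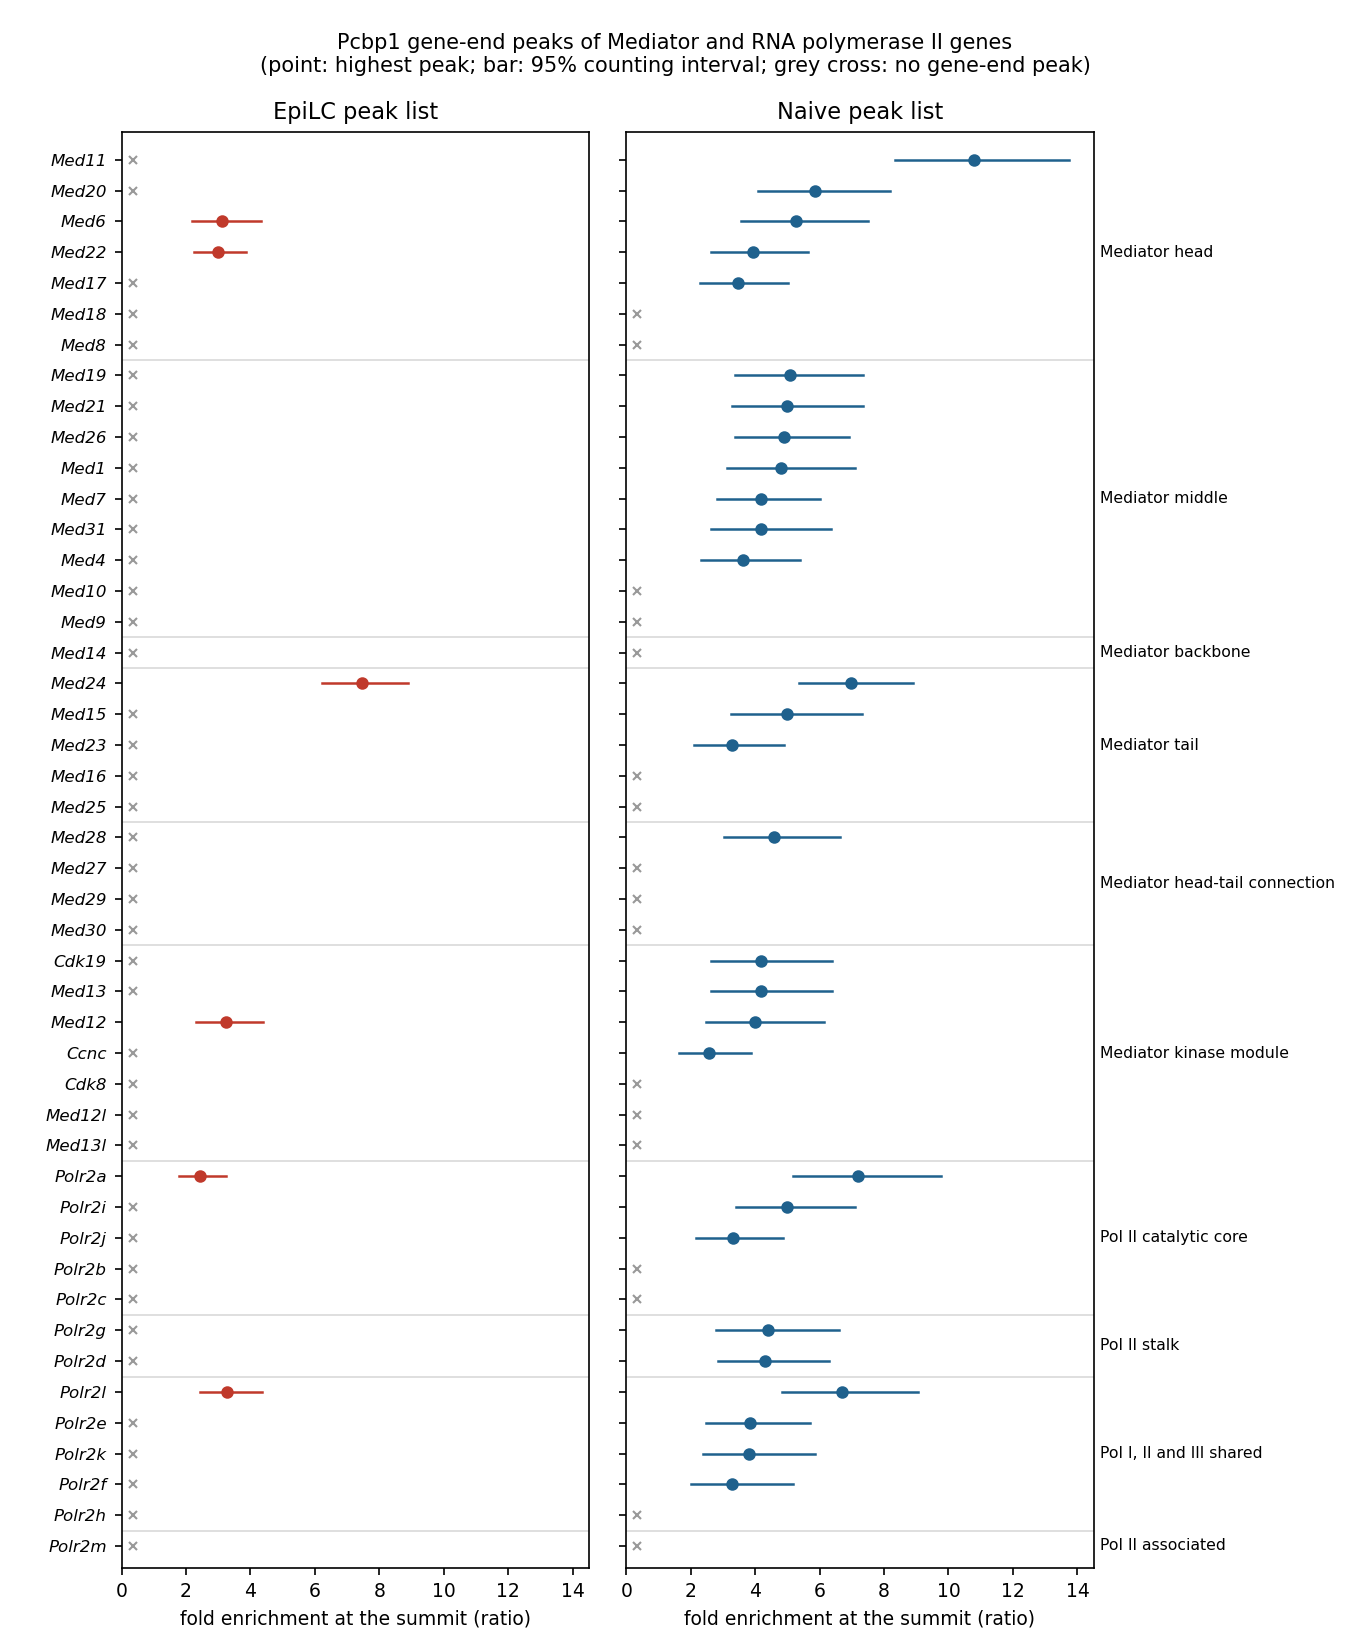
Fold enrichment at the highest gene-end peak of each of the 46 genes, grouped by module, in the EpiLC (left) and Naive (right) peak lists; bars are 95% counting intervals and grey crosses mark genes with no gene-end peak. The EpiLC panel holds 6 genes with Med24 highest at 7.47, and the Naive panel holds 29 genes with Med11 highest at 10.8.

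The member with the highest EpiLC peak was Med24, a tail subunit (chromosome 11, 98704597 to 98729419). Its fold was 7.47 in EpiLC (95% counting interval 6.24 to 8.88, pileup 127) and 6.97 in Naive (5.37 to 8.91, pileup 62), at summits 63 bp apart. These folds stood above 97.2% of EpiLC peaks and 89.8% of Naive peaks. The ratio of EpiLC to Naive folds was 1.07, with overlapping intervals, and was higher than at 91.9% of the 838 genes with overlapping gene-end peaks in both lists. Over those 838 genes the median ratio was 0.604 (quartiles 0.479 and 0.787), and 10.7% had a ratio above 1. These figures depend on the local background in each list. Taken over the genome-wide background alone, and without the 1 added in the fold, the pileups gave a median ratio of 0.913. On that measure 38.2% of the 838 genes were above 1. Med24 then had 1.10, higher than at 78.2% of them. The local background at Med24 was 2.17 times the genome-wide one in EpiLC and 2.01 times in Naive.

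Polr2a, which encodes the largest subunit with the catalytic centre and the repeated C-terminal tail (chromosome 11, 69733997 to 69758633), showed the reverse order. Its fold was 2.43 in EpiLC (1.78 to 3.26, pileup 43) and 7.20 in Naive (5.17 to 9.77, pileup 39), with intervals that did not overlap. The ratio of 0.338 was higher than at only 6.44% of the 838 genes, and the summits lay 211 bp apart, farther than the median gap of 48 bp. The local background moved with it, at 2.30 times the genome-wide one in EpiLC and 1.14 times in Naive. Over the genome-wide background alone, its pileups were 5.79 times it in EpiLC (4.19 to 7.79) and 9.74 times in Naive (6.93 to 13.3). The ratio was then 0.594 and the intervals overlapped. Polr2l, whose product is shared by RNA polymerases I, II and III (chromosome 7, 141471860 to 141475153), had 3.29 in EpiLC (2.42 to 4.36) and 6.69 in Naive (4.83 to 9.05), again without overlap, and a ratio of 0.491. Over the genome-wide background alone it had 6.19 in EpiLC (4.53 to 8.26) and 9.99 in Naive (7.14 to 13.6), with intervals that overlapped and a ratio of 0.620. The intervals at these 2 genes were thus apart in the folds and overlapped over the genome-wide background alone. Their ratios stayed low among the 838 genes. Over that background the Polr2a ratio was still higher than at only 6.44% of them. The Polr2l ratio was higher than at 27.2% by fold and at 8.59% over that background. Overlap of 2 intervals does not by itself place a difference within counting error, and each ratio compares 1 library with 1 library.

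The 3 other shared genes had intervals that overlapped between the lists. Med6, a head subunit (chromosome 12, 81573557 to 81595008), had 3.13 in EpiLC (2.19 to 4.34) and 5.25 in Naive (3.55 to 7.51). Med22, another head subunit (chromosome 2, 26905267 to 26910642), had 2.98 in EpiLC (2.25 to 3.87) and 3.93 in Naive (2.64 to 5.65). Med12, which activates the kinase of its module (chromosome X, 101274091 to 101298934), had 3.23 in EpiLC (2.32 to 4.38) and 3.996 in Naive (2.49 to 6.13). Their ratios were 0.595, 0.759 and 0.808. Over the genome-wide background alone, Med22 and Med12 turned to 1.08 and 1.11, so no order between the states can be read for them. Med6 did not turn, with a ratio of 0.654 that was higher than at 12.2% of the 838 genes. Near Med12 lay the highest peak of the Naive list, at Snx12, 51463 bp from the Med12 gene in EpiLC and 51454 bp in Naive, with folds of 26.7 in EpiLC and 44.96 in Naive.

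**Figure D2:**
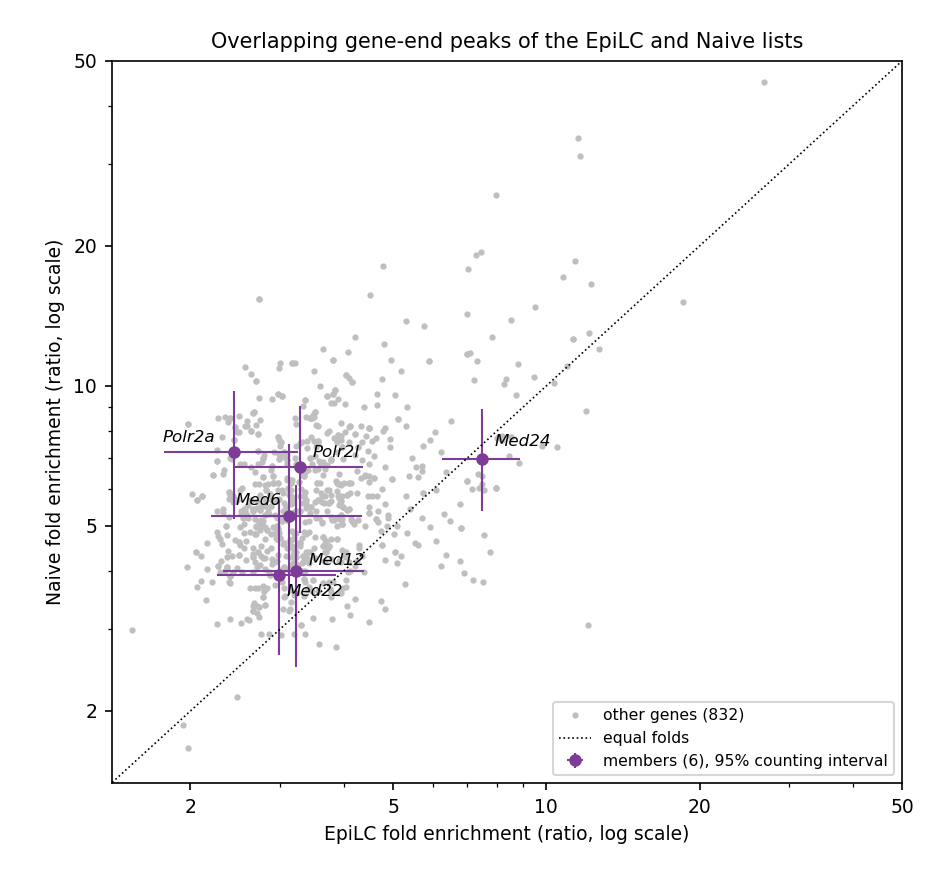
Fold enrichment in EpiLC (horizontal, log scale) and Naive (vertical, log scale) at overlapping gene-end peaks of 838 genes; the 6 members are drawn with 95% counting intervals and the dotted line marks equal folds. Polr2a and Polr2l lie above the line with ratios of 0.338 and 0.491, and Med24 lies near it with 1.07.

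The head module had gene-end peaks at 2 of 7 genes in EpiLC and 5 of 7 in Naive. Med11, whose product pairs with Med22 in the head, had the highest Naive peak of all members at 10.8 (8.35 to 13.7, pileup 64; chromosome 11, 70451918 to 70453732). This stood above 98.2% of Naive peaks, and the nearest EpiLC summit lay 201225 bp from the gene. Med20 followed with 5.87 (4.09 to 8.17) at a peak shared with Bysl, and Med17, the scaffold of the head, had 3.45. Med8 and Med18 lacked gene-end peaks in both states.

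The middle module had gene-end peaks at 0 of 9 genes in EpiLC and 7 of 9 in Naive. Its Naive folds spanned 3.62 to 5.08, so that all 7 lay within each other's counting intervals. Med19 had 5.08 (3.38 to 7.36), Med21 had 4.996 (3.27 to 7.34), Med26, a subunit that binds elongation factors, had 4.91 (3.38 to 6.90), and Med1, which nuclear receptors bind, had 4.80 (3.11 to 7.10). Med7, Med31 and Med4 ranged from 3.62 to 4.19. Med9 and Med10 were marked in neither list. A count of 0 of 9 in EpiLC cannot be told from the background of 5.61% at this number of genes.

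The tail was marked at 1 of 5 genes in EpiLC, namely Med24, and at 3 of 5 in Naive. Med15 had 4.98 (3.26 to 7.32) and Med23 had 3.27 in Naive, and neither had one in EpiLC. Med16 and Med25 had none. Of the 4 subunits between head and tail, Med28 had a Naive peak of 4.57 (3.05 to 6.62), and Med27, Med29 and Med30 had no gene-end peak. Med14, the backbone that joins the modules, was far from any peak, with the nearest summit 279035 bp away in EpiLC and 285245 bp away in Naive.

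The kinase module had gene-end peaks at 1 of 7 genes in EpiLC, namely Med12, and at 4 of 7 in Naive. Besides Med12 these were Med13, which links the module to the rest of Mediator, and Cdk19, each with 4.20 (2.64 to 6.37), and Ccnc, the cyclin of the module, with 2.58 (1.64 to 3.88). The Ccnc peak was the lowest of the members in Naive and stood above 1.63% of Naive peaks. Paralogues differed: Med12 and Med13 had Naive peaks while Med12l and Med13l had none, and Cdk19 had one while Cdk8 had none at its ends.

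RNA polymerase II genes gave 2 of 13 in EpiLC (15.4%) and 9 of 13 in Naive (69.2%), beside 4 of 33 (12.1%) and 20 of 33 (60.6%) for Mediator genes. Of the 5 genes of the polymerase core (Polr2a, Polr2b, Polr2c, Polr2i and Polr2j), 1 was marked in EpiLC and 3 in Naive. Polr2i had 4.996 in Naive (3.40 to 7.10) and Polr2j had 3.32 (2.18 to 4.88). The stalk pair Polr2d and Polr2g, whose products bind the emerging transcript, were in the Naive list alone, with 4.32 (2.85 to 6.30) at Polr2d and 4.39 (2.79 to 6.60) at Polr2g. Of the 5 genes shared with RNA polymerases I and III, Polr2l was marked in EpiLC, and Polr2l, Polr2e (3.83), Polr2k (3.82) and Polr2f (3.30) had one in Naive, while Polr2h had none. Polr2m, whose product binds the polymerase in competition with initiation factors, was marked in neither list.

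**Figure D3:**
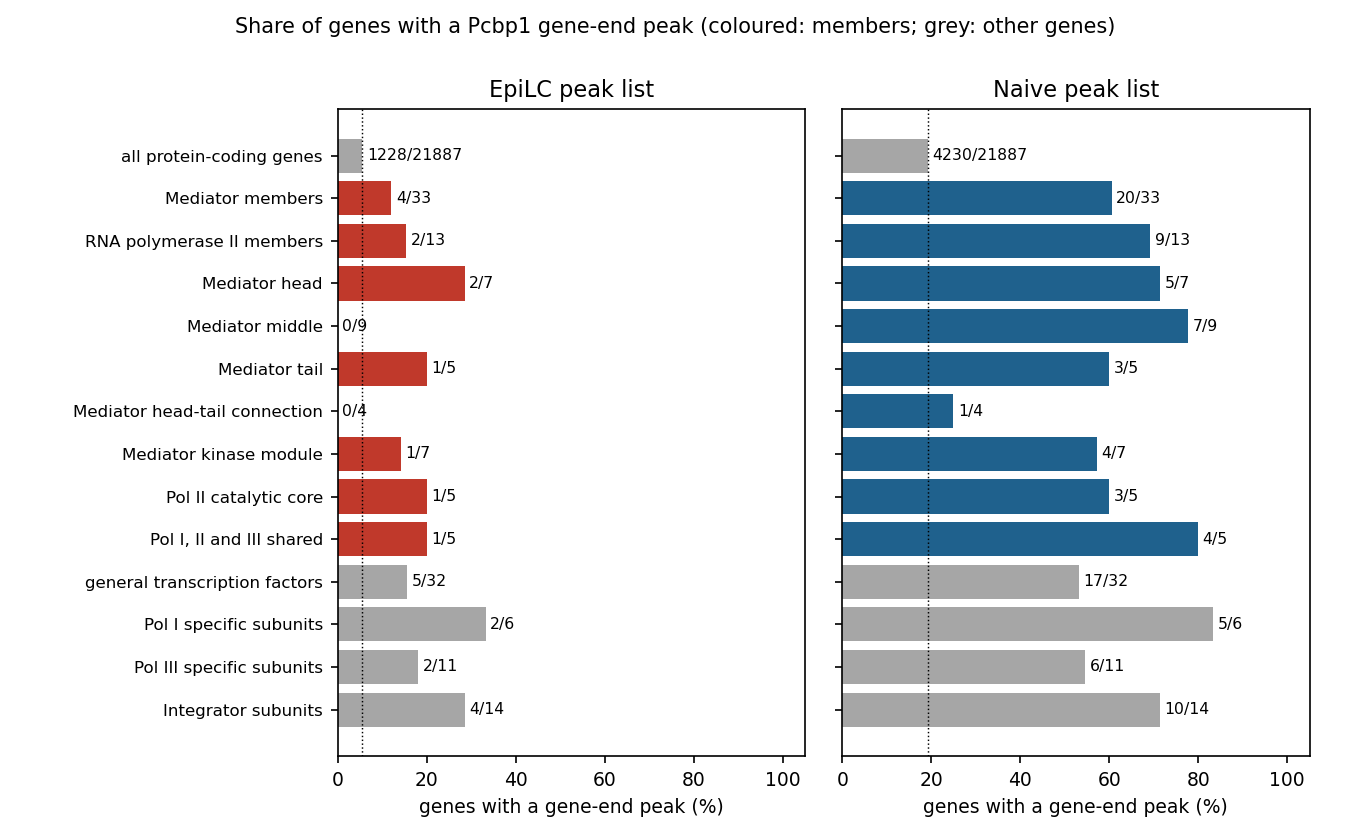
Percentage of genes with a gene-end peak in the EpiLC (left) and Naive (right) lists for all protein-coding genes, for the members by complex and module (coloured; the modules of 1 or 2 genes are not drawn) and for 4 related gene lists (grey); the numbers are genes with a peak over genes in the group, and the dotted line is the share of all genes. Member shares lie above the line in Naive, at 60.6% for Mediator and 69.2% for RNA polymerase II, and the related lists do so as well.

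Other genes of the transcription machinery also had shares above those of all genes, in lists of 6 to 32 genes. General transcription factors had gene-end peaks at 5 of 32 genes in EpiLC (15.6%) and 17 of 32 in Naive (53.1%), Integrator subunits at 4 of 14 (28.6%) and 10 of 14 (71.4%), RNA polymerase III subunits at 2 of 11 (18.2%) and 6 of 11 (54.5%), and RNA polymerase I subunits at 2 of 6 (33.3%) and 5 of 6 (83.3%). The highest general factor genes were Taf9 and Taf15 in EpiLC, at 4.48 and 4.14, and Gtf2f2 and Taf9 in Naive, at 8.59 and 8.11. For Integrator, which cleaves nascent transcripts, these were Ints10 (3.75) and Ints3 (3.31) in EpiLC and Ints7 (6.39) and Ints9 (6.18) in Naive. Polr3b and Polr3f were highest among RNA polymerase III genes in both lists, with 4.49 and 3.77 in EpiLC and 6.39 and 6.94 in Naive. Among RNA polymerase I genes these were Cd3eap, now called Polr1g, with 2.22 in EpiLC and 6.42 in Naive, Polr1a with 2.05 in EpiLC, and Polr1b with 5.20 in Naive. Every one of these lists had a higher EpiLC share than the 13.04% of the members, and their Naive shares lay on both sides of the 63.04% of the members.

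The peaks lay at gene starts. Of the members with a gene-end peak, the RefSeq promoter table gave a start for 5 in EpiLC, with 6 peaks, and for 23 in Naive, with 25 peaks. All of these peaks were within 1 kb of a listed start, where the share over all genes was 87.8% in EpiLC and 89.8% in Naive. The median distance from the start was 254.5 bp in EpiLC and 186 bp in Naive, against 256 and 216 bp over all genes. In EpiLC 3 summits lay upstream and 3 downstream of the start, and in Naive 13 lay upstream and 12 downstream, so summits lay on both sides in both lists. Starts are not listed for Med8, Med23, Med24, Med30, Cdk19, Polr2d, Polr2g and Polr2k. With fragments of about 500 bp, a summit does not place the bound bases to within a few bases.

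**Figure D4:**
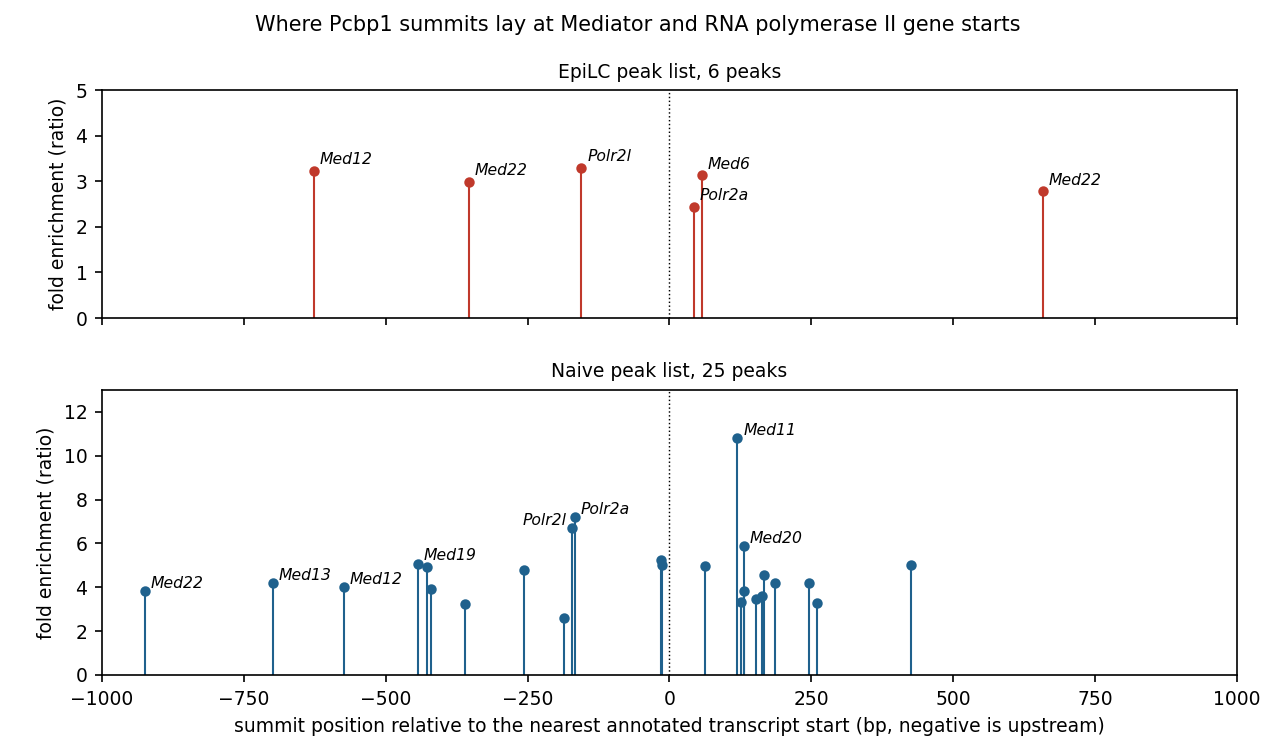
Fold enrichment of member peaks against the position of their summits relative to the nearest listed transcript start, in bp, for the EpiLC list (above, 6 peaks) and the Naive list (below, 25 peaks); negative positions are upstream and each stem is 1 peak. Summits lie on both sides of the start, from 626 bp upstream (Med12) to 659 bp downstream (Med22) in EpiLC and from 924 bp upstream (Med22) to 425 bp downstream (Med21) in Naive.

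Several of these peaks also lay near a neighbouring gene. In the EpiLC list 2 of the 6 genes (33.3%) and in the Naive list 7 of the 29 (24.1%) had a peak that also lay within 1 kb of another protein-coding gene end, against 31.4% and 36.9% of all genes with a gene-end peak. Med22 adjoins Rpl7a, a ribosomal protein gene, and at the shared peak the summit was nearer to Rpl7a than to Med22 in EpiLC (311 against 354 bp) and in Naive (377 against 420 bp). Each list held a second peak at this gene pair, 659 bp into Med22 in EpiLC (2.78) and 924 bp upstream of Med22 in Naive (3.83). The Naive one was nearer to the end of Rpl7a, at 881 bp. Neither lay between the 2 genes, and these second peaks did not overlap each other. Polr2l adjoins Tspan4, which was nearer in EpiLC (72 against 155 bp) and in Naive (88 against 171 bp). The Naive peaks at Med19, Med20, Med31, Polr2f and Polr2i were shared with Tmx2, Bysl, 4930563E22Rik, 1700088E04Rik and Tbcb. When each peak counted only for its nearest gene, a choice made after seeing the data, 5 members kept a peak in EpiLC and 27 in Naive. The share of all genes under that rule was not computed, so these counts have no background to stand beside.

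The distances showed a gap only outside the limit of 1 kb. A window of 500 bp dropped Med12 from both lists and Med13 from Naive. Inside the limit of 1 kb were the Naive peaks at Med12 (573 bp, fold 3.996), Med13 (698 bp, 4.20) and the second one at Med22 (924 bp, 3.83). In EpiLC those at Med12 (626 bp, 3.23) and Med22 (659 bp, 2.78) lay there. Just outside were an EpiLC peak 2878 bp from Polr2j (2.70) and Naive peaks 2528 bp from Polr2k (3.80), 3309 bp from Polr2c (3.22) and 3524 bp from Med25 (4.43). Inside the gene bodies and away from the ends there was no EpiLC peak and there were 5 Naive peaks, in Med27 (4.54), Cdk19 (4.08), Med26 (3.96), Polr2c (3.22) and Cdk8 (2.73). The Naive list is the longer one and the share of all genes with such a peak was not computed. These counts therefore show nothing particular to the members. The Cdk8 peak had a pileup of 218 over a local background 19.8 times the genome-wide one, while the other 4 stood on 1.02 to 1.38 times that background.

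Chromosome 11 carries 8 of the 46 genes, namely Med1, Med7, Med9, Med11, Med13, Med24, Med31 and Polr2a. Of these, 2 were marked in EpiLC and 7 in Naive (87.5%), beside 6.28% and 24.2% of the 1609 protein-coding genes of that chromosome. On the other chromosomes 4 of 38 members (10.5%) had one in EpiLC and 22 of 38 (57.9%) in Naive, so the Naive share did not rest on chromosome 11.

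Promoter composition was compared for the 38 members with a listed start. Median GC content was 66.3% for the 5 members with an EpiLC peak, 61.0% for the 23 with a Naive peak and 54.7% for the 15 with neither, against 56.3% for 17492 protein-coding genes; the 5 are among the 23. Base composition ranged widely among the members with neither, from 39.3% to 84.7%, the highest being Med13l. The motif CCCC, on either strand, was in 100% of the EpiLC group, 91.3% of the Naive group, 93.3% of those with neither and 88.1% of all genes. Longer runs (CCCCCC) were in 2 of 5, 5 of 23 and 3 of 15 members and in 21.0% of all genes. CCCTCCC, which can overlap a C run, was in 3 of 5, 6 of 23 and 1 of 15, and in 26.9% of all genes. Over all genes, those with CCCC had gene-end peaks more often, in 6.06% of cases in EpiLC (95% exact binomial interval 5.68 to 6.44) and 21.6% in Naive (20.9 to 22.2). Genes without it had them in 2.16% of cases in EpiLC (1.58 to 2.88) and 8.68% in Naive (7.51 to 9.97). Among the members, nearly all of which hold CCCC, the groups are too small to show such a difference.

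Motifs of general promoter factors were searched in the same way, on both strands. The GC box of Sp and Klf factors (GGGCGG), which can overlap a run of G, was in 27 of the 38 members (71.1%) and in 49.2% of all genes. It was as frequent in members with neither peak (73.3%) as in those with a Naive peak (69.6%). The Ets site ACTTCCGG was in 5 members (13.2%) and 5.69% of all genes, TATAAA in 5 (13.2%) and 14.8%, AAGATGGC of Yy1 in 1 and 3.57%, and GCGCATGCG of Nrf1 in 4 (10.5%) and 2.61%. Polr2a held TATAAA in the window printed above. The letters searched for Zfp143 and Nrf1 had been shortened by 1 after a first search. ACTACAATT, part of the site of Zfp143, was in 0.577% of all genes and in 1 member, Med11, which had the highest Naive peak. The Med11 window (chr11:70451668-70451967, plus strand) is given with this match in capitals, which reads on the opposite strand and lies 50 to 42 bp before the start.
Med11: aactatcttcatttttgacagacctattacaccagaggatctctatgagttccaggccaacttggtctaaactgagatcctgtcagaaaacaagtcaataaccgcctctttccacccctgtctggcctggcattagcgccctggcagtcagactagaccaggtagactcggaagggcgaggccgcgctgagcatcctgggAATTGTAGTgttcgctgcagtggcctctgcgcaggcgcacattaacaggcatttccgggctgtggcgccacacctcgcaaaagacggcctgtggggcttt
The Naive summit lay 120 bp after the start of Med11, outside this window. A match of letters is a description and does not show that Zfp143 binds there.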

How the data were processed

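Tools named in the submitters' processing notes are fastp, Bowtie2, Picard and MACS2, with GRCm38 (mm10) as the build; a control for the caller is not named. Each deposited fold is a ratio to a background set by the caller. The authors also deposited a −log10 p-value and a −log10 q-value per peak (lowest q value 2.02 in both lists). The deposited integer score restates the q-value and was not used, and the deposited summit offset gave positions.

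The summit pileup was recovered from fold, read as (pileup + 1) / (background + 1), and the Poisson p-value, which 1 whole number met within 0.001 for 100% of peaks in both lists. It gave 95% Poisson intervals. The genome-wide background is the lowest in a list. On simulated data, 100% of 2000 pileups and 100% of 1000 planted summits were returned.

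Overlap meant at least 1 bp. Gene ends and promoters came from RefSeq for GRCm38.p6, and 38 of 46 genes had a promoter entry. The work used matplotlib 3.10.9, scipy 1.17.1, pandas 2.3.3 and numpy 2.4.6 under Python 3.11.15. With 1 library per state no test was run. Shared members and the 10 highest in Naive alone got full values, others at least a fold or a range. Members and lists were chosen with earlier results of these data known. The letters searched for Zfp143 and Nrf1 were shortened by 1 after a first search. Alternatives were the window, the peak threshold, the list length, the overlap rule and the fold's background.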

Additional observations from a re-analysis of the deposited data

How the results depend on the processing

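Counts of members with a gene-end peak kept within 1.5 times their value (6 in EpiLC, 29 in Naive) with windows of 500 and 3000 bp, any part of a peak in the window, starts only, a −log10 q of at least 5, and nearest genes only. Shares of all genes were not computed for any part of a peak, starts only and nearest genes only. With windows of 500 and 3000 bp the member shares were 10.9% and 15.2% in EpiLC, beside 4.27% and 7.53% of all genes. In Naive they were 58.7% and 63.0%, beside 16.4% and 23.8%. With that q threshold they were 10.9% beside 4.59% in EpiLC and 45.7% beside 15.4% in Naive. A fold of at least 5 left 1 gene in EpiLC (Med24, 2.17% beside 0.676% of all genes) and 7 in Naive (15.2% beside 6.83%). The shortened Naive list left 5 genes there (10.9% beside 5.44%). Both alternatives keep fewer peaks by construction. Shared members stayed at 6 with 50% reciprocal overlap and were 5 with summits within 200 bp. The median member fold of 3.18 in EpiLC became 5.99, and that of 4.32 in Naive became 5.99, when pileups were set over the genome-wide background. That measure leaves out the higher local background and also the 1 that the fold adds to pileup and background. Med13 in Naive, with a local background equal to the genome-wide one, still went from 4.20 to 4.99. The gap between these medians was gone on this measure, but they cover 6 genes in EpiLC and 29 in Naive. Leaving out the added 1 raises values more at the lower Naive background. Medians over the genome-wide background with that 1 kept were not computed. At the 6 shared genes the median ratio of EpiLC to Naive was 0.866 over that background, with 3 of the 6 above 1. This change of measure moved 19 of 35 single folds beyond their counting intervals. Taking the peak nearest a gene end moved 1 of 35 (Med21, 3.22 in place of 4.996). No paired analysis was possible because each state had 1 ChIP library. Absence from a list at this depth does not show absence of Pcbp1.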

Other observations

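Promoters with the Zfp143 letters found at Med11 were looked at over all genes, Med11 included, after that match had been seen. The letters had been shortened by 1 after a first search. Of 101 protein-coding genes whose window held ACTACAATT, 3 were marked at a gene end in EpiLC (2.97%, 95% exact binomial interval 0.617 to 8.44) and 53 in Naive (52.5%, 42.3 to 62.5). Without it, 5.61% of 17391 genes were marked in EpiLC and 19.8% in Naive. The median Naive fold of the marked genes was 4.80, beside 4.58 for genes without the letters. Med11 ranked behind Zfyve1 alone among these genes in Naive fold, at 10.8 and 18.1, and Gtf2h4, of the general factor TFIIH, had 6.52. Genes with the Ets, Yy1 and Nrf1 letters had gene-end peaks in Naive in 44.6%, 41.7% and 39.4% of cases, and in EpiLC in 8.94%, 9.29% and 8.53%. Those with the GC box had them in 7.39% in EpiLC and 26.8% in Naive, and those without it in 3.85% and 13.4%. TATAAA went the other way, with 3.86% in EpiLC and 10.7% in Naive, against 5.89% and 21.6% without it. CCCTCCC had 7.31% and 20.1%, against 4.96% and 20.0%, and CCCCCC had 7.75% and 21.8%, against 5.02% and 19.6%. A raised Naive share was thus common to several of the motifs and not to all. The EpiLC share was higher with the Ets, Yy1, Nrf1, GC box, CCCTCCC and CCCCCC letters. For Zfp143 it rested on 3 genes, and its interval holds the 5.61% of genes without the letters, so no difference can be read. Genes share promoters and base composition, and no test was made.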
